A study of Mus musculus with 14 samples.

Results

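The 36 genes described here encode proteins of macrophages and of leukocytes in general, read in outgrowths of mouse lung and skin that the submitters labelled as fibroblasts. They were given as a list of gene symbols, matched through GENCODE M21 to Ensembl identifiers, and make up 36 of the 48795 genes in the count table. All 36 passed the filter on low counts, which left 16408 genes to test. By role they comprise 10 surface and granule genes of macrophages, 8 surface genes shared by leukocytes, 2 chemokine receptors, 5 genes of the phagocyte NADPH oxidase, 3 transcription factors and 8 genes of signalling and actin.

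RNA was sequenced from explant cultures, in which small pieces of lung or of dorsal skin are laid in a dish and cells grow out of them onto tissue culture plastic. The mice were male C57BL/6J, wild type or labelled Rel -/-, aged 8 to 10 weeks, and the outgrowths were scraped off at 14 days with no stimulation. Rel encodes c-Rel, an NF-kappaB transcription factor that leukocytes use. The groups were wild-type lung (n = 5, libraries 1, 23, 3, 4 and 5), Rel -/- lung (n = 4, libraries 7 to 10), wild-type skin (n = 2, libraries 11 and 22) and Rel -/- skin (n = 3, libraries 18 to 20). Rel-null below means labelled Rel -/-. The labels name no step that sorted the cells, say that skin pieces were taken out before harvest but not that lung pieces were, and leave unsaid whether each library is its own animal, so the tests weigh differences against the spread between these libraries only.

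Macrophages are tissue-resident phagocytes that take up and digest microbes, dead cells and debris, and the lung holds several kinds of them. They carry receptors for lipopolysaccharide, lipids and chemokines, secrete lysozyme, and kill with a membrane oxidase whose catalytic core and soluble regulators are made together. The lineage factor PU.1, encoded by Spi1, binds purine-rich sites with a GGAA core in front of many of these genes.

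Each library held 12780350 to 30987933 counts, other than wild-type skin 22, which held 2663437. Levels are given as CPM, the count scaled to a common library total. In 4 libraries many expressed genes had no count: of genes that averaged at least 5 CPM over the remaining libraries of its tissue, Rel-null lung 7 lacked 11.46%, wild-type skin 11 lacked 8.22%, wild-type lung 4 lacked 5.78% and Rel-null skin 18 lacked 3.37%, and no other library lacked more than 0.73%. Xist, which coats the silenced X of female cells, went against the male label in wild-type lung 1 (64.5 CPM) and wild-type skin 22 (732 CPM). Lung read Rel itself at 6.27, 17.3, 12.9, 1.10 and 12.4 CPM in wild type and at 0.0651, 4.06, 1.39 and 3.80 CPM in Rel-null, and skin read it at 11.5 and 10.9 CPM in wild type and at 0.0349, 9.42 and 9.47 CPM in Rel-null. Rel thus goes against the label of the libraries labelled Rel-null skin 19 and 20, and wild-type lung 4 lay within the Rel-null lung range, so every genotype direction below follows the labels alone. Rel was also read in Rel-null lung 8, 9 and 10. The lowest readings, Rel-null lung 7, Rel-null skin 18 and wild-type lung 4, came from libraries with many genes at 0. Wild-type skin 11, also among those libraries, read 11.5 CPM. The part of the missing genes in the low Rel values was not tested. Library 10 of Rel-null lung has a treatment label that names skin, whereas its title and source name lung.

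Taken as a sum, the 36 genes were abundant in every lung outgrowth and scarce in every skin outgrowth, though this did not hold gene by gene. Summed over the list, they took 5600, 16387, 22294, 20053 and 18168 CPM of wild-type lung 1, 23, 3, 4 and 5, and 9277, 28266, 24096 and 24139 CPM of Rel-null lung 7, 8, 9 and 10. In skin the sum was 233.6 and 193 CPM in wild-type 11 and 22, and 347.9, 332.4 and 254.7 CPM in Rel-null 18, 19 and 20. The lowest lung library thus stood far above the highest skin library. For 28 of the 36 genes every lung library lay above every skin library, which held for 2.61% of all genes tested. The exceptions were Lyz1, Cd14, Aif1, Cd53, Cx3cr1, Ccr2, Cyba and Ikzf1. The count was 32 without the 4 libraries with many genes at 0 (6.76% of all genes), 29 without the libraries with Xist (4.33%) and 28 without Rel-null skin 19 and 20 (3.2%). In these mixed cultures, fewer cells of a type and less RNA per cell cannot be told apart.

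**Figure D1:**
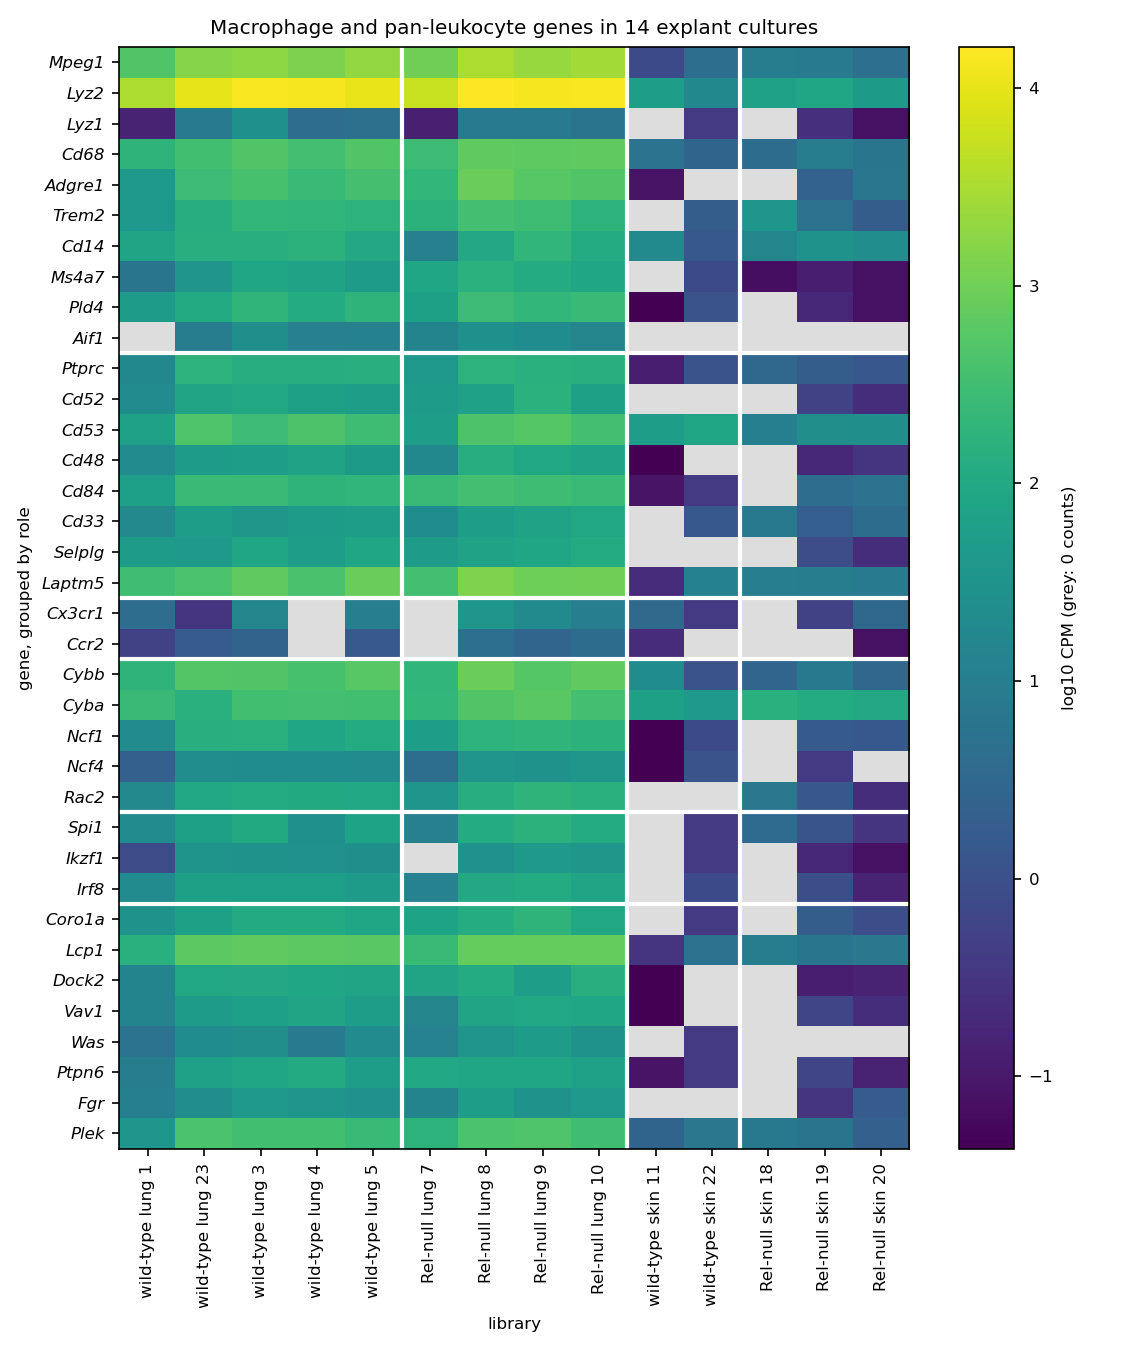
Level of each of the 36 genes (rows, grouped by role) in each of the 14 libraries (columns), as log10 CPM by colour, with grey for 0 counts. The lung columns are bright in most rows, with Lyz1, Cx3cr1 and Ccr2 dark or grey and single grey cells for Aif1 and Ikzf1, wild-type lung 1 and Rel-null lung 7 are the dimmest of them, and the skin columns are dark or grey in most rows other than Cyba, Lyz2, Cd53 and Cd14.

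Lyz2 (chromosome 10, 117277331-117282321, GRCm38 as throughout), the lysozyme gene of macrophages, was the most abundant member of every lung library and made up 56.9% to 68.5% of the summed level. Wild-type lung libraries 1, 23, 3, 4 and 5 read Lyz2 at 3330, 9810, 14500, 13700 and 10600 CPM, and Rel-null lung 7, 8, 9 and 10 at 5370, 16100, 13800 and 14300 CPM. Skin read 56.8 and 17.6 CPM in wild-type 11 and 22 and 65.5, 83.3 and 46.5 CPM in Rel-null 18, 19 and 20. The tissues did not overlap, and the low lung libraries were wild-type 1 and Rel-null 7. Skin stood below lung by a log2 fold change of -8.22 ± 0.96 (approximate standard error from the F statistic, SE) in wild type and -7.70 ± 0.78 in Rel-null (edgeR adjusted p = 0.000244 and 3.4e-05).

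Lyz1 (chromosome 10, 117287797-117292868), the lysozyme gene of Paneth cells, lies next to Lyz2, and the annotated transcripts of the pair were identical over 92.0% of their alignment, so reads could be assigned to either. Its level was 0.157, 8.26, 26.9, 4.15 and 5.03 CPM in wild-type lung and 0.130, 8.55, 8.85 and 5.86 CPM in Rel-null lung. No skin library read more than 0.375 CPM, and wild-type lung 1 and Rel-null lung 7 fell within the skin range. Per kilobase of exon, the mean over the lung libraries was 8570 CPM for Lyz2 and 5.97 CPM for Lyz1. Lyz1 was not called in either tissue comparison (edgeR adjusted p = 0.301 and 0.13).

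Promoter windows from RefSeq on GRCm38.p6, running from 250 bases before to 50 bases after the start, were on hand for 29 of the 36 genes. They are shown for the near-copies Lyz2 and Lyz1, whose windows were identical over 81.9% of their alignment despite the gap in level. Also shown are those of Pld4, whose skin libraries had almost no counts. The others are those of Cybb and Cyba, the membrane core of the oxidase, of which Cyba had the smaller fall in skin. Capitals mark GAGGAA or AGGAAGT on either strand, spellings that contain the GGAA core. The windows are chr10:117282223-117282522 (minus strand) for Lyz2, chr10:117292819-117293118 (minus) for Lyz1, chr12:112760405-112760704 (plus) for Pld4, chrX:9469275-9469574 (minus) for Cybb and chr8:122432891-122433190 (minus) for Cyba, each printed 5′ to 3′ along the gene. The RefSeq start of Cybb lies inside the GENCODE span of the gene.
Lyz2: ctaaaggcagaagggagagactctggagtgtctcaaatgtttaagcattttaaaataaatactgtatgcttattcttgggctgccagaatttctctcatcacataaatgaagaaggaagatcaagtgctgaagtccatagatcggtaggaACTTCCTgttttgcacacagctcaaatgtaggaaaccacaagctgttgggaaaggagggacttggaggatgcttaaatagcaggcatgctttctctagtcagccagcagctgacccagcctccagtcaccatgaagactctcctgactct
Lyz1: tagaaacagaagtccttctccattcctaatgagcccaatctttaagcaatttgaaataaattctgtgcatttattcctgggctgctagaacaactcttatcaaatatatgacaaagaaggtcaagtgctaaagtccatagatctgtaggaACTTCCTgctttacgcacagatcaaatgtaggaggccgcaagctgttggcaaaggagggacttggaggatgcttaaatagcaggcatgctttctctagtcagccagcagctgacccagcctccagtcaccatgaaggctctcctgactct
Pld4: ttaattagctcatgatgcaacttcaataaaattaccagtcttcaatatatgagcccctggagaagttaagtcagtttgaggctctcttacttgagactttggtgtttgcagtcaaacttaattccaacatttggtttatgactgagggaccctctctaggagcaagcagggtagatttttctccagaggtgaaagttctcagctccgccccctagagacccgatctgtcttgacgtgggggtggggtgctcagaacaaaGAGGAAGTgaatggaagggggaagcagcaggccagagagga
Cybb: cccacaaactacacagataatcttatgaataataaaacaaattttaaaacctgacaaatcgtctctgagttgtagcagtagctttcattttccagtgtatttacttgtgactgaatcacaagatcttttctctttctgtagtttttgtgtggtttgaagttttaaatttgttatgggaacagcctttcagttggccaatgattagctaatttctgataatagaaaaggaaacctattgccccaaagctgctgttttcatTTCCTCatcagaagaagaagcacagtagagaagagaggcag
Cyba: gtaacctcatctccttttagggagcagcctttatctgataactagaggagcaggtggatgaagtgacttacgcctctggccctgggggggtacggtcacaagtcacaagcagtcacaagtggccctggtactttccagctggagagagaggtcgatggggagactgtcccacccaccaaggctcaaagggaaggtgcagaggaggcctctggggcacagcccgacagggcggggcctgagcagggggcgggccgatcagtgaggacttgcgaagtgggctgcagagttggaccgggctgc
Both lysozyme windows held 1 match of AGGAAGT, printed as its reverse complement, Pld4 held 1 match of each spelling, Cybb 1 of GAGGAA, and Cyba neither.

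Of 10 spellings searched on both strands, GAGGAA was found in 16 of the 29 member windows and in 31.3% of the 27025 genes with a window, and GGAAGT in 16 and 26.5%. The longer spellings, which contain or overlap these, were AGGAAGT in 9 windows and 10.7% of genes, GAGGAAG in 8 and 15.4%, GAGGAAGT in 3 and 3.69%, and AGAGGAAGT in 2 and 1.18%. The shorter GGGAA stood in 21 windows and 65.5% of genes. Of spellings without the core, TGANTCA stood in 5 windows and 8.97% of genes, TATAAA in 3 and 15.7%, and CCATAT in 1 and 7.66%. These are matches of letters only, and both the spellings and the windows shown were picked with levels and matches in view.

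Mpeg1 (chromosome 19, 12460779-12465283) encodes perforin-2, a pore-forming protein of macrophages. It was the second member by level in every lung library, at 496, 1530, 1800, 1280 and 2030 CPM in wild type and 1020, 3340, 2270 and 2660 CPM in Rel-null. Skin read 0.775 and 4.51 CPM in wild type and 9.59, 8.21 and 4.77 CPM in Rel-null. The lowest lung library was 51.8-fold above the highest skin library. Mpeg1 had the smallest p of the members between the wild-type tissues, with a log2 fold change of -9.65 ± 1.00 (edgeR adjusted p = 0.000145), and -8.40 ± 0.77 in Rel-null (1.85e-05).

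Cd68, a lysosomal glycoprotein used to stain macrophages, had the smallest p between the Rel-null tissues. Its levels were 178, 334, 484, 348 and 486 CPM in wild-type lung and 287, 699, 661 and 686 CPM in Rel-null lung, against 5.68 and 2.63 CPM in wild-type skin and 3.97, 9.74 and 6.34 CPM in Rel-null skin. Rel-null lung 7 was the low library of its group and still stood above every skin library. The log2 fold change of skin against lung was -6.50 ± 0.69 in wild type and -6.58 ± 0.57 in Rel-null (edgeR adjusted p = 0.000145 and 1.85e-05).

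Adgre1 encodes F4/80, the surface protein by which mouse macrophages are often sorted. Lung read it at 44.4, 281, 382, 257 and 370 CPM in wild type and at 215, 859, 563 and 492 CPM in Rel-null. Skin had 0.0861 and 0 CPM in wild type and 0, 2.48 and 6.65 CPM in Rel-null, so the only skin libraries above 1 CPM were those labelled Rel-null 19 and 20. Trem2, a lipid-sensing receptor of macrophages and microglia, ran from 39.6 to 340 CPM in lung. Its skin values were 0 and 1.88 CPM in wild type and 36.5, 5.35 and 1.88 CPM in Rel-null, and Rel-null skin 18 came close to the lowest lung library, wild-type 1 with 39.6 CPM.

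Cd14, the co-receptor for lipopolysaccharide, separated the tissues less well. Wild-type lung read 75.7, 140, 132, 164 and 100 CPM and Rel-null lung 11.3, 98.0, 205 and 117 CPM, against 18.6 and 1.5 CPM in wild-type skin and 15.8, 31.4 and 23.4 CPM in Rel-null skin. Rel-null lung 7 lay inside the skin range. The log2 fold change of skin against lung was -3.61 ± 0.97 in wild type and -2.34 ± 0.77 in Rel-null, and neither passed (edgeR adjusted p = 0.0591 and 0.0993). Without the 4 libraries with many genes at 0 both did, at -6.54 and -2.46 (adjusted p = 0.000433 and 0.000814).

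Of the other macrophage genes on the list, Ms4a7, a tetraspan membrane protein, ran from 6.19 to 154 CPM in lung and reached at most 0.751 CPM in skin. Pld4, an endolysosomal nuclease, ran from 52.0 to 287 CPM and reached at most 1.13 CPM. Both were lower in skin in both genotypes, with log2 fold changes of -8.83 and -9.31 in wild type and -10.29 and -11.44 in Rel-null (edgeR adjusted p at most 0.00173). Aif1, which encodes the actin-binding protein IBA1, was at 0 counts in all 5 skin libraries and in wild-type lung 1, and at 9.21 to 27.6 CPM in the other lung libraries. Set against a floor of 3 counts over the group, Aif1 was at least 102-fold lower in wild-type skin (edgeR adjusted p = 0.0808) and at least 376-fold lower in Rel-null skin (0.0109).

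Among surface genes shared by leukocytes, Ptprc (chromosome 1, 138062861-138175708) encodes CD45, the phosphatase carried by nearly all blood-derived cells. It read 17.3, 173, 127, 126 and 137 CPM in wild-type lung and 39.4, 172, 147 and 137 CPM in Rel-null lung. Skin read 0.129 and 1.13 CPM in wild type and 3.28, 1.85 and 1.41 CPM in Rel-null. All skin libraries were far below all lung libraries. The 2 skin genotypes did not overlap, as for 13.7% of all genes higher in Rel-null skin. The gap was narrow, and 1.13 CPM in wild-type skin 22 is the level of 3 counts. The log2 fold change of skin against lung was -8.62 ± 1.21 in wild type and -5.94 ± 0.81 in Rel-null (edgeR adjusted p = 0.000974 and 0.00034).

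Laptm5, a lysosomal membrane protein of blood cells, was the highest of these 8 genes by mean CPM. Lung read 322, 418, 697, 409 and 856 CPM in wild type and 350, 1350, 965 and 1010 CPM in Rel-null. In skin, wild-type 11 had 0.215 CPM and wild-type 22 had 12.4 CPM, and Rel-null had 10.4, 9.49 and 9.00 CPM. The wild-type skin libraries thus lay on either side of all the Rel-null ones.

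Cd53 (chromosome 3, 106759921-106790149), a leukocyte tetraspanin, had the highest skin levels of these 8 genes. Lung read 68.1, 460, 290, 449 and 304 CPM in wild type and 55.8, 442, 554 and 356 CPM in Rel-null, whereas skin read 58.0 and 84.1 CPM in wild type and 11.2, 24.4 and 25.4 CPM in Rel-null. Wild-type skin 22 was above wild-type lung 1, and both wild-type skin libraries were above Rel-null lung 7. The tissue difference passed in Rel-null (-4.26 ± 0.73, edgeR adjusted p = 0.00212) and not in wild type (-2.31 ± 0.77, adjusted p = 0.148).

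The other surface genes were low in skin throughout. Cd84, a self-binding receptor of the SLAM family, ran from 61.0 to 351 CPM in lung and reached 5.32 CPM in skin, and its relative Cd48 ran from 17.1 to 128 CPM and reached 0.313 CPM. Cd33, a sialic acid receptor, ran from 18.2 to 90 CPM in lung and reached 7.70 CPM in Rel-null skin 18. Cd52, a small anchored glycoprotein, and Selplg, the ligand by which leukocytes roll on selectins, had no count in either wild-type skin library. Against 3 counts over that group they were at least 531-fold and at least 546-fold lower than in wild-type lung (edgeR adjusted p = 0.00071 and 0.000745). Most of the depth behind that floor is wild-type skin 11, with 23236280 counts but many genes at 0. In wild-type skin 22 alone, with 2663437 counts, 3 counts are 1.13 CPM, which would bound much less. The same limit holds for the wild-type skin bounds given for Aif1, Rac2 and Fgr.

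Of the members, the chemokine receptors had the lowest mean levels over the lung libraries per kilobase of exon. Cx3cr1 (chromosome 9, 119901616-120069879), the fractalkine receptor of monocytes and some macrophages, read 4.15, 0.318, 15.9, 0 and 10.6 CPM in wild-type lung and 0, 34.5, 19.5 and 10.6 CPM in Rel-null lung. Skin read 3.57 and 0.375 CPM in wild type and 0, 0.509 and 3.13 CPM in Rel-null, within the lung range. Its annotated span overlaps 9 other genes, 6 of them on the other strand, so reads of those genes could enter its count.

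Ccr2, the receptor that draws monocytes out of the blood, read 0.549, 1.80, 2.58, 0 and 1.57 CPM in wild-type lung and 0, 4.57, 2.86 and 4.04 CPM in Rel-null lung, and at most 0.215 CPM in skin. Both libraries at 0 for both receptors in lung, wild-type 4 and Rel-null 7, were among the 4 with many genes at 0. Neither receptor was called in a tissue comparison, and the difference nearest the threshold was Ccr2 in Rel-null (-6.79 ± 2.66, edgeR adjusted p = 0.172). Per kilobase of exon, the mean level over the lung libraries was 0.295 CPM for Ccr2 and 2.36 CPM for Cx3cr1, against 119 CPM for Adgre1 and 368 CPM for Cd68.

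Phagocytes make superoxide with an oxidase whose membrane core is the pair gp91phox (Cybb) and p22phox (Cyba). Cybb (chromosome X, 9435252-9487771) read 179, 519, 502, 379 and 583 CPM in wild-type lung and 199, 912, 536 and 717 CPM in Rel-null lung. In skin it read 22.2 and 1.13 CPM in wild type and 2.82, 7.64 and 2.90 CPM in Rel-null, with wild-type skin 11 the highest and wild-type skin 22 the lowest of the 5. Skin was below lung by -5.21 ± 1.00 on the log2 scale in wild type and -7.19 ± 0.92 in Rel-null (edgeR adjusted p = 0.00723 and 0.000219).

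Cyba (chromosome 8, 122424776-122432930), which also partners oxidases outside leukocytes, had the smallest called tissue difference of the list. Lung read 264, 152, 339, 341 and 327 CPM in wild type and 208, 506, 602 and 351 CPM in Rel-null. Skin read 64.0 and 44.7 CPM in wild type and 152, 118 and 97.6 CPM in Rel-null, so that Rel-null skin 18 and wild-type lung 23 read the same to 3 digits. Cyba was the most abundant member in 4 of the 5 skin libraries and second to Cd53 in wild-type skin 22. The log2 fold change was -2.56 ± 0.49 in wild type and -1.89 ± 0.41 in Rel-null (edgeR adjusted p = 0.00734 and 0.0115), and the wild-type call was lost without wild-type skin 22. Its span overlaps another annotated gene, as do those of 13 further members, Ptprc, Cd52, Cd48, Cx3cr1, Ncf1, Ikzf1, Irf8, Coro1a, Lcp1, Dock2, Was, Ptpn6 and Plek, and reads could be shared there.

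The soluble oxidase subunits and their GTPase were low in skin, like Cybb. Ncf1 (p47phox) ran from 20.8 to 190 CPM in lung and reached 1.66 CPM in skin, and Ncf4 (p40phox) ran from 2.23 to 39.1 CPM and reached 1.13 CPM. Rac2 (chromosome 15, 78559167-78572783), the Rac GTPase of blood cells, read 18.5, 96.0, 117, 106 and 89.0 CPM in wild-type lung and 34.9, 126, 180 and 152 CPM in Rel-null lung. It had no count in wild-type skin and 7.49, 1.40 and 0.235 CPM in Rel-null skin. Against 3 counts over the group, wild-type skin was at least 735-fold below wild-type lung (edgeR adjusted p = 0.00271).

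Rac1, the widely expressed relative of Rac2, read 357 ± 59.1 and 483 ± 103 CPM in wild-type and Rel-null lung (mean ± SD, n = 5 and 4) and 415 ± 95.8 and 482 ± 35.0 CPM in skin (n = 2 and 3), with log2 fold changes of 0.05 and -0.11 between tissues in wild type and Rel-null (edgeR adjusted p = 0.98 and 0.899). It is not on the list.

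Spi1 (chromosome 2, 91082390-91115756) encodes PU.1, the factor that sets the myeloid lineage. Lung read 20.8, 61.7, 102, 26.8 and 74.3 CPM in wild type and 11.5, 115, 163 and 118 CPM in Rel-null, and skin read 0 and 0.375 CPM in wild type and 3.83, 1.21 and 0.313 CPM in Rel-null. No skin library reached the lowest lung library, Rel-null 7. The log2 fold change of skin against lung was -10.21 ± 1.86 in wild type and -5.92 ± 1.06 in Rel-null (edgeR adjusted p = 0.00508 and 0.00304).

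Irf8, an interferon regulatory factor of macrophages and dendritic cells, read 21, 63.9, 61.0, 59.9 and 52.3 CPM in wild-type lung and 12.8, 100, 117 and 76.3 CPM in Rel-null lung, and at most 0.955 CPM in skin. Ikzf1, the lymphoid and myeloid factor Ikaros, was at 0.823 CPM in wild-type lung 1 and at 0 in Rel-null lung 7, and between 25.2 and 42.6 CPM in the other lung libraries. Its skin maximum was 0.375 CPM, above Rel-null lung 7 alone. Ikzf1 passed in Rel-null (adjusted p = 0.0235) and not in wild type (adjusted p = 0.127, edgeR).

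Lcp1, the leukocyte actin bundler L-plastin, led the signalling and actin genes. It read 148, 641, 699, 649 and 594 CPM in wild-type lung and 242, 794, 787 and 770 CPM in Rel-null lung, and 0.301 and 5.26 CPM in wild-type skin and 9.76, 6.30 and 7.51 CPM in Rel-null skin. Plek, the platelet and leukocyte protein pleckstrin, read 36.1, 420, 332, 335 and 246 CPM in wild-type lung and 170, 421, 465 and 311 CPM in Rel-null lung. Its skin range was 2.19 to 7.53 CPM. For both genes wild-type lung 1 was the lowest lung library and Rel-null lung 7 the next lowest.

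The rest of this role reached less than 2 CPM in any skin library. Coro1a (an actin regulator of leukocytes) ran from 32.1 to 178 CPM in lung, Dock2 (an activator of Rac) from 14.2 to 139 CPM, and Vav1 (an exchange factor of blood cells) from 14.4 to 91.6 CPM. Ptpn6 (the phosphatase SHP-1) ran from 9.64 to 112 CPM, Fgr (a myeloid Src kinase) from 10.9 to 54.3 CPM, and Was (the actin nucleation promoter mutated in Wiskott-Aldrich syndrome) from 5.72 to 51.5 CPM. All 8 genes of the role were lower in skin in both genotypes at an edgeR adjusted p of 0.0138 or less. Was had no count in Rel-null skin, at least 623-fold below Rel-null lung, and Fgr none in wild-type skin, at least 238-fold below wild-type lung.

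**Figure D2:**
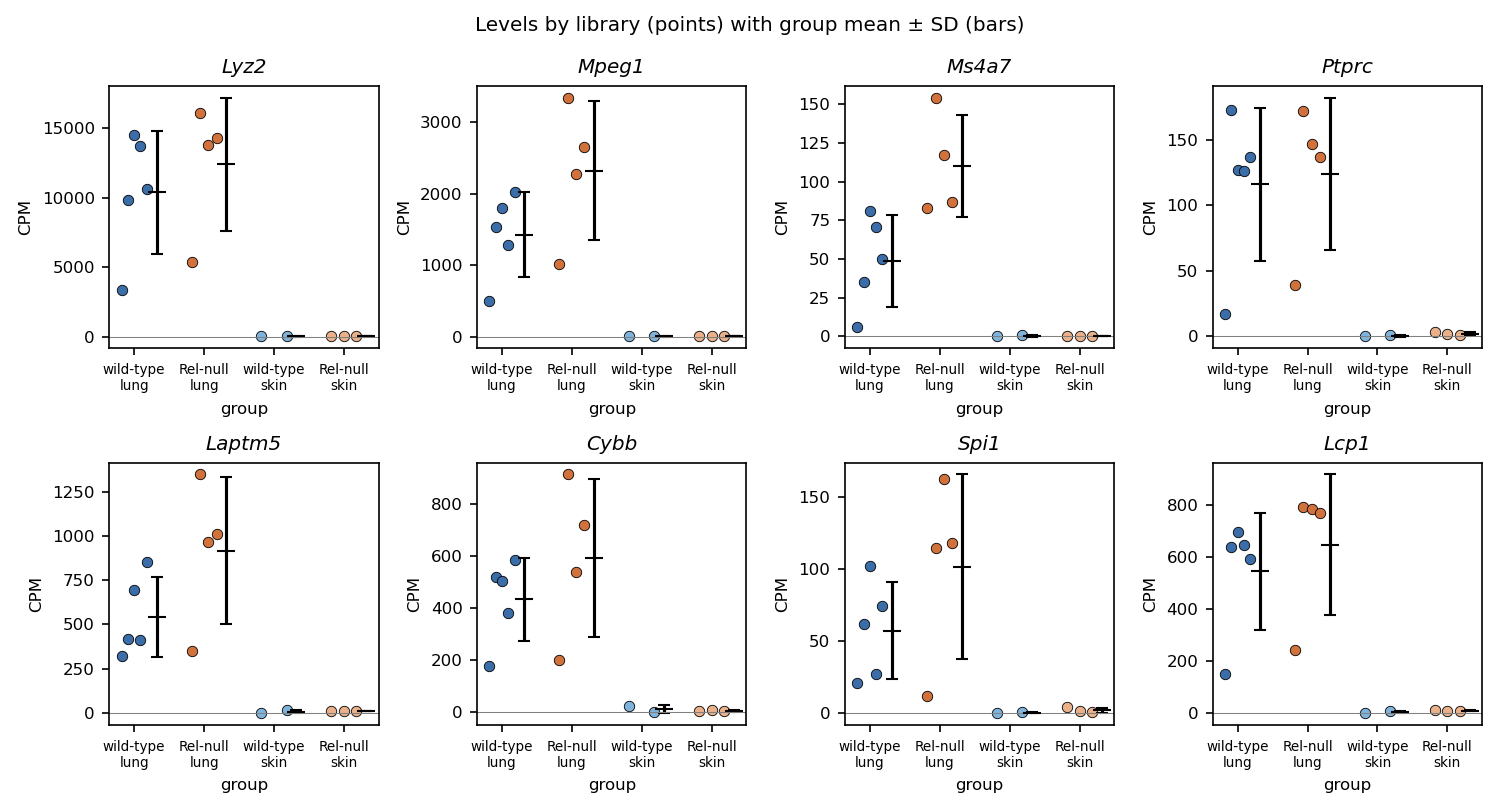
CPM on linear axes of Lyz2, Mpeg1, Ms4a7, Ptprc, Laptm5, Cybb, Spi1 and Lcp1 by group, with 1 point per library and bars for the group mean ± SD (n = 5, 4, 2 and 3 from left to right). Lung points spread widely within each genotype with 1 low library per genotype in most panels, and skin points lie near 0.

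Over the list, skin against lung gave 28 of 36 genes called in wild type, all lower in skin, where 2.07% of all genes tested were called lower, 0.902% higher and 2.97% in either direction (edgeR, adjusted p under 0.05). In Rel-null, 32 of 36 were called, again all lower, where 3.23% of genes were called lower, 1.82% higher and 5.05% in either direction. All 36 fold changes were negative in both. The filter used all 14 libraries, so members scarce in skin could pass it on lung counts alone, which favours a lower level in skin. The list was also chosen with earlier results of these data known. The tissue counts here and above, and those of the other macrophage genes below, therefore describe the lists and do not test them. The median log2 fold change was -8.84 in wild type, or -8.56 with genes at 0 in a group set at their bound, and -7.16 in Rel-null, against medians of -0.13 and -0.01 over all genes tested. Lung and skin did not overlap for 31 genes in either genotype, against 8.19% and 7.58% of all genes lower in skin.

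The wild-type count rests on 2 libraries. It was 17 without wild-type skin 11 (1.45% of all genes called) and 4 with limma-voom and quality weights (4.03% of all genes), namely Mpeg1, Lyz2, Laptm5 and Lcp1. It was 27 without wild-type skin 22 (5.89% of all genes) and 34 with DESeq2 (7.44%). The Rel-null count was 22 without the libraries labelled Rel-null skin 19 and 20 (2.34% of all genes), 35 with DESeq2 (10.8%), 36 with limma-voom (27.4%) and 27 to 35 under the other alternatives.

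**Figure D3:**
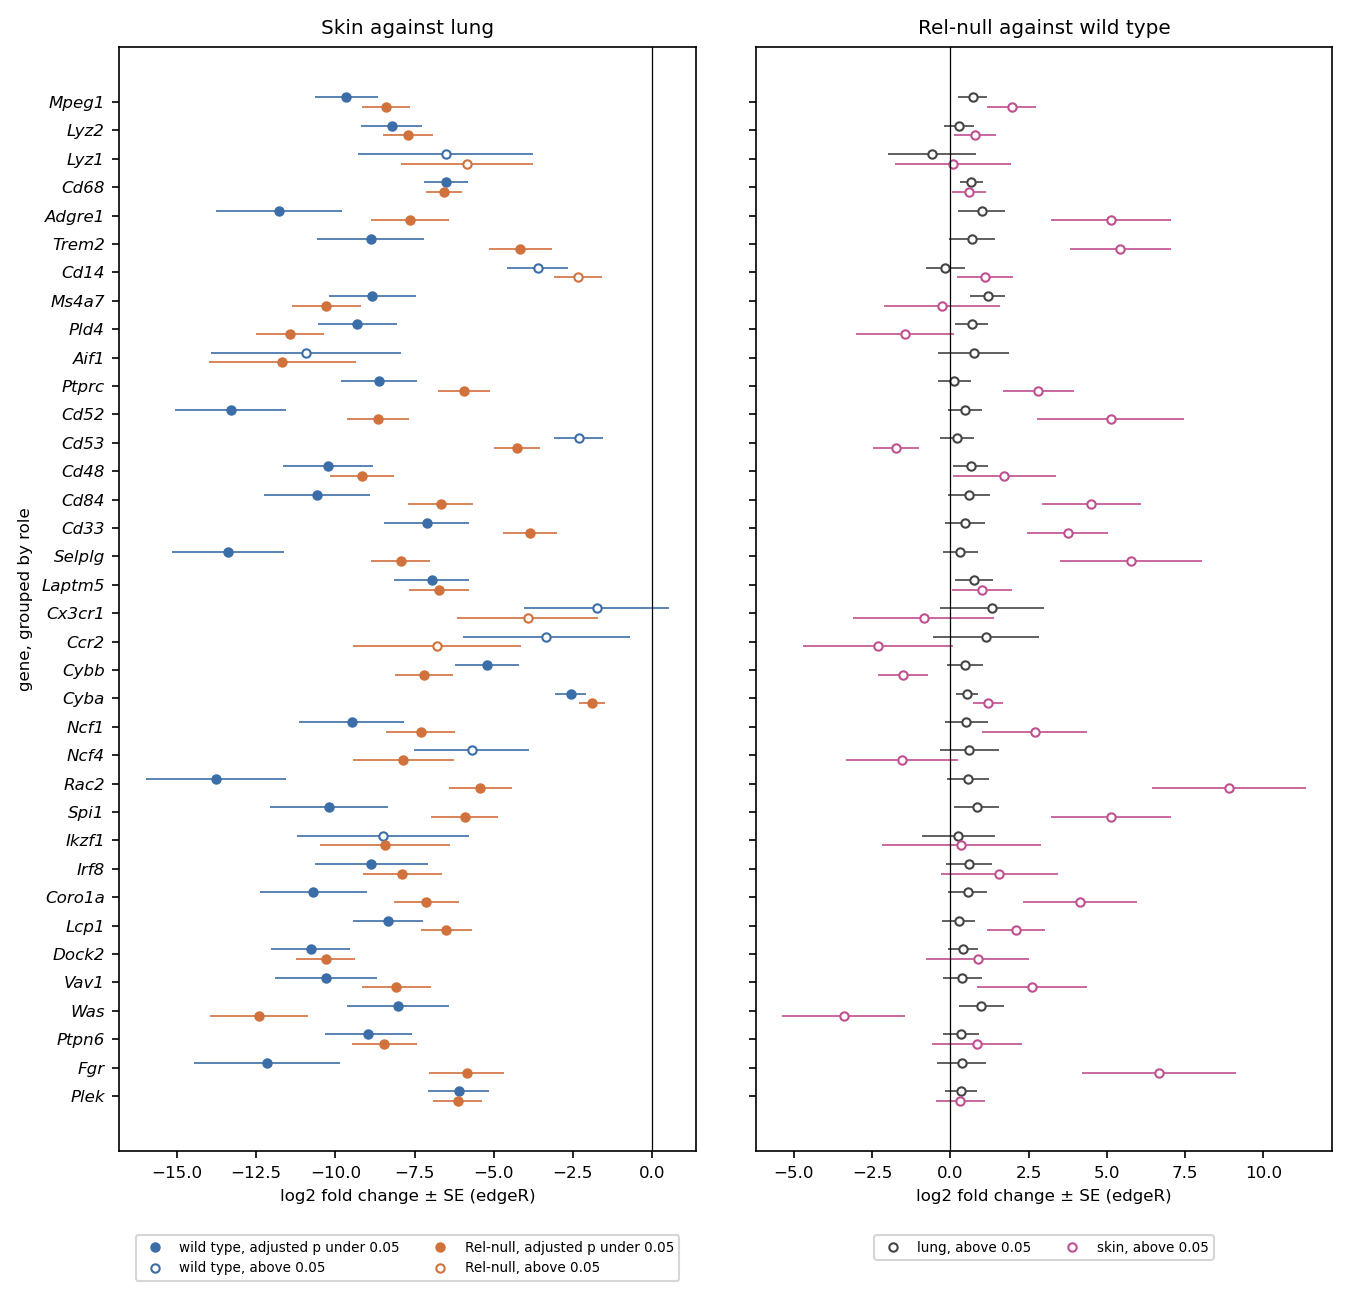
edgeR log2 fold change ± SE of each of the 36 genes, skin against lung on the left (wild type blue, labelled Rel-null orange) and Rel-null against wild type on the right (lung dark, skin pink), with filled points for an adjusted p under 0.05. All points on the left are below 0 and most are filled, none on the right is filled, and the skin intervals on the right are wide.

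The 9 lung libraries also differed among themselves. Set against the mean of its 9 lung values, each gene's level had a median over the 36 genes of 0.27 for wild-type lung 1 and of 0.46 for Rel-null lung 7. It was 0.91, 1.12, 0.97 and 0.93 in wild-type lung 23, 3, 4 and 5, and 1.47, 1.45 and 1.29 in Rel-null lung 8, 9 and 10. Wild-type lung 1 held the lowest lung value of 25 of the genes and Rel-null lung 7 that of 9, ties at 0 included, while Rel-null lung 8 held the highest of 16 and Rel-null lung 9 that of 13. Summed levels of 10 fibroblast genes were 130900 CPM in wild-type lung 1, the highest of the lung libraries, and 25360 CPM in Rel-null lung 7, the lowest, against 29440 to 87270 CPM in the others. Most of that sum was collagen, with wild-type lung means of 30000 CPM for Col3a1, 22100 CPM for Col1a1 and 13200 CPM for Col1a2. The other fibroblast genes differed in how far they ran. In wild-type lung Vim ran from 1200 to 1710 CPM, Dcn from 1160 to 1650 CPM and Pdgfra from 672 to 1320 CPM. Pdgfrb ran there from 388 to 890 CPM, Lum from 86.7 to 176, Thy1 from 83.7 to 250 and S100a4 from 2.65 to 22.3. In Rel-null lung Vim ran from 1270 to 4800 CPM and Dcn from 482 to 1370 CPM. Wild-type lung 1 is one of the libraries with Xist, and Rel-null lung 7 has the most genes at 0. The part of each in these low values was not tested.

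**Figure D4:**
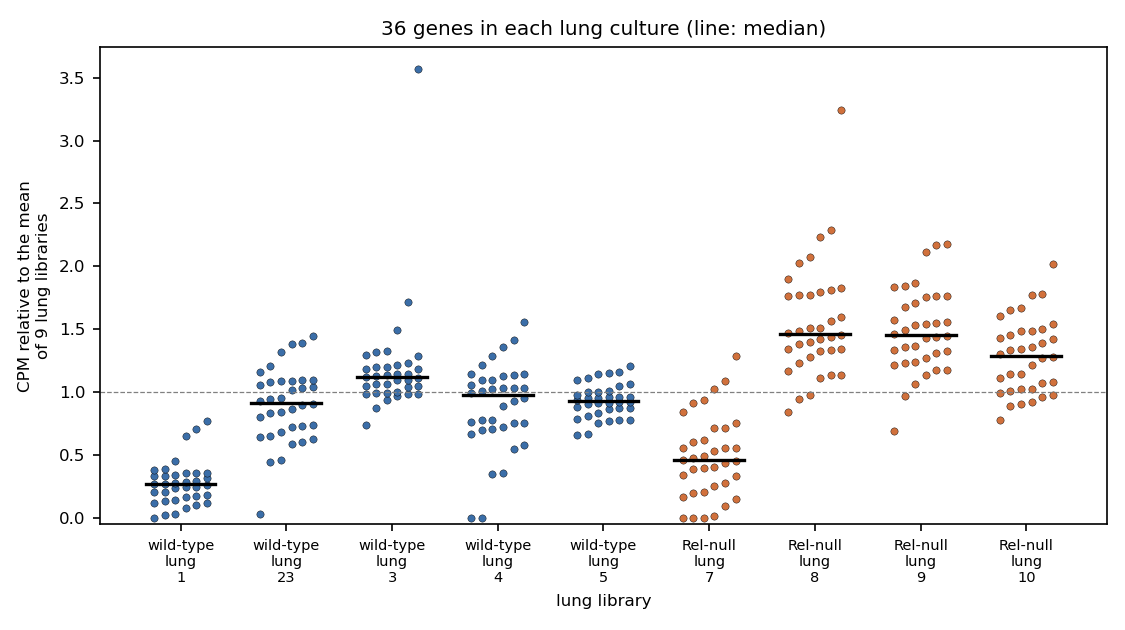
CPM of each of the 36 genes in each lung library divided by that gene's mean over the 9 lung libraries (points), with the median as a black line and the mean level as a dashed line at 1. The medians of wild-type lung 1 and Rel-null lung 7 are 0.27 and 0.46, and those of Rel-null lung 8, 9 and 10 are 1.29 to 1.47.

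The ratio between the leading members was also compared. The ratio of Lyz2 to Mpeg1 counts lay between 4.82 and 10.7 in all 9 lung libraries, with wild-type lung 4 the highest and Rel-null lung 8 the lowest. The low libraries, wild-type lung 1 with 6.71 and Rel-null lung 7 with 5.25, were inside the range of the others. In skin it ran from 3.92 in wild-type 22 to 73.3 in wild-type 11.

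Whether loss of Rel changes the macrophage genes in lung outgrowths was addressed by Rel-null against wild-type lung. No member was called by edgeR, DESeq2 or limma-voom, which called 0.0%, 0.311% and 0.0366% of all genes. By edgeR no member and 1036 of the 16408 genes had an unadjusted p under 0.05. In direction 34 of 36 stood higher in Rel-null, with Lyz1 and Cd14 lower, and the median log2 fold change was 0.54 against -0.08 over all genes. Of the 10 fibroblast genes 8 stood lower in Rel-null lung, with a median of -0.57 and none called, and their sums were 25360 to 65580 CPM against 29440 to 130900 CPM in wild type. Their part in the shift was not tested. Mean levels were 10400 ± 4430 CPM against 12400 ± 4780 CPM for Lyz2 in wild type (SD, n = 5) and Rel-null (n = 4), and 1430 ± 593 against 2320 ± 973 CPM for Mpeg1. For Lyz2 the difference was smaller than either SD, and for Mpeg1 it was larger than the wild-type SD and smaller than the Rel-null SD.

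Ms4a7 (chromosome 19, 11321039-11336146) had the smallest p in lung and was the only gene of the list whose lung groups did not overlap, against 0.993% of all genes higher and 1.3% lower without overlap. It read 6.19, 35.1, 80.8, 70.4 and 50.2 CPM in wild type and 82.8, 154, 117 and 86.7 CPM in Rel-null. The highest wild-type library, 3, thus nearly met the lowest Rel-null library, 7. The log2 fold change was 1.19 ± 0.57 (edgeR adjusted p = 0.781).

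The size of the lung shift depended on the libraries kept. Its median was 0.33 without wild-type lung 1, with 31 of 36 genes higher, 0.31 without both libraries with Xist, also with 31 higher, and 0.85 without the 4 libraries with many genes at 0, with 35 higher. None of these alternatives called a member, and the last called 0.0343% of all genes. The members share the same libraries, and the plot of relative levels shows most of them low together in wild-type lung 1 and Rel-null lung 7, so their directions are not independent of each other.

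In skin, Rel-null against wild type also gave no called member and 0.0% of all genes by edgeR, with 1024 of 16408 at an unadjusted p under 0.05. Of the 35 genes with a count in skin, 15 had an unadjusted p under 0.05, 27 stood higher in Rel-null and 8 lower, and the median log2 fold change was 1.20, or 1.10 with genes at 0 in a group set at their bound, against 0.01 over all genes. The filter used all 14 libraries, so genes scarce in skin could pass it on lung counts. A fit on the skin libraries alone kept 21 members, 18 higher and 3 lower. Their median was 1.63, against 0.042 over all genes, and none was called. DESeq2 called Trem2 and Rac2 (0.884% of all genes), as did edgeR with no filter on low counts (0.241%), and limma-voom called none (1.83%). Groups did not overlap for 7 genes higher in Rel-null, against 13.7% of all genes, and for Cd53 lower, against 11.5% of all genes.

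Rac2 had the smallest p of the list in skin. With 0 counts in both wild-type libraries and 215, 22 and 3 counts in Rel-null 18, 19 and 20, it was at least 26.3-fold higher in Rel-null against 3 counts over the wild-type group (edgeR adjusted p = 0.453). Trem2 rested on the same library, with 1047, 84 and 24 counts in Rel-null 18, 19 and 20 and 0 and 5 in wild type (log2 fold change 5.43 ± 1.61, edgeR adjusted p = 0.499). Cyba stood higher in all 3 Rel-null libraries than in both wild-type ones (1.20 ± 0.48, adjusted p = 0.746), as did Ptprc (2.81 ± 1.14, adjusted p = 0.749).

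The skin direction turned with the libraries kept. Rel was read in the libraries labelled Rel-null skin 19 and 20. Without them the 32 genes with a count had a median of -2.71, with 12 higher and 20 lower, against -0.103 over all genes. That leaves Rel-null skin 18, where 20 of the 36 members were at 0, against 3 in library 19 and 3 in library 20. Library 18 is also among the 4 with many genes at 0. The part of Rel or of these zeros in the turn was not tested. Without wild-type skin 22 the median was 3.87, and Trem2, Cd33, Laptm5 and Lcp1 were called (2.36% of all genes). Without both libraries with Xist it was 3.88, and Mpeg1 and Ptprc joined those 4 (2.50% of all genes). Without the 4 libraries with many genes at 0, Cd14 alone was called (0.498% of all genes), with a median of 1.29. In each of these fits at least 1 skin group is a single library, assumed to vary like the others. With wild-type skin 22 left out, wild-type skin 11 stands alone, and it is among the 4 libraries with many genes at 0. It had 14 of the 36 members at 0, among them Trem2 and Cd33. The same holds below for the difference of genotype effects without the libraries with Xist. The part of these zeros in the positive medians and calls was not tested.

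**Figure D5:**
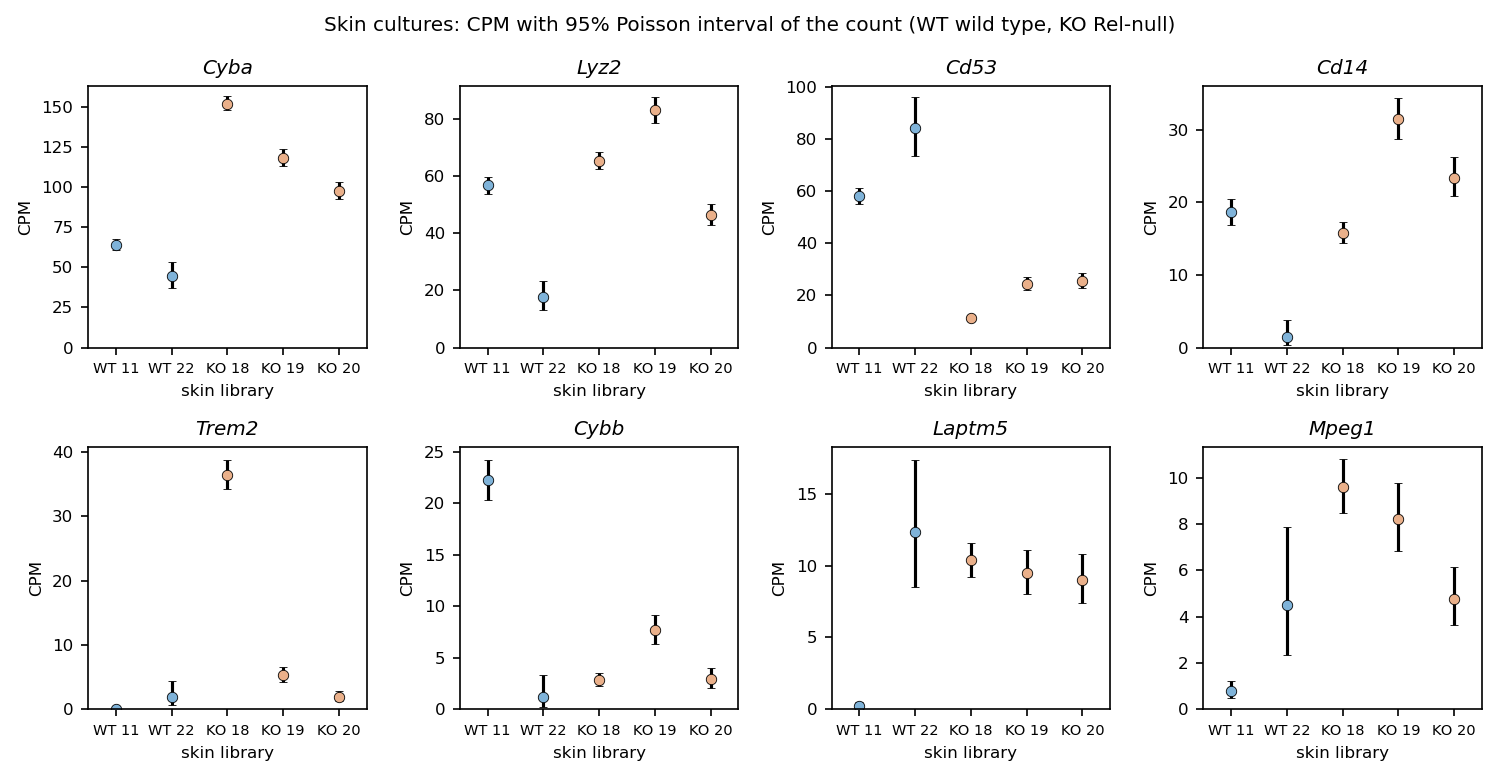
CPM in the 5 skin libraries of the 8 members shown, with bars for the exact 95% Poisson interval of the count, which covers counting error only. Wild-type 22, with the fewest counts, has the widest intervals for low genes. Trem2 is high in 1 Rel-null library, Cybb in 1 wild-type library, and Cyba is higher and Cd53 lower in all 3 Rel-null libraries than in both wild-type ones.

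Keratinocyte genes stood higher in the skin libraries labelled Rel-null, although none of 10 was called (smallest edgeR adjusted p = 0.0513). Summed over 10 such genes, they stood at 46.4 and 30.8 CPM in wild-type skin 11 and 22 and at 2858, 1163 and 2020 CPM in Rel-null skin 18, 19 and 20, and 9 of the 10 were higher without overlap, against 13.7% of all genes. None of the 10 was at 0 in a Rel-null skin library, and 2 were at 0 in each wild-type one. Fibroblast genes summed to 21240 and 39200 CPM in wild-type skin and 11800, 26670 and 18500 CPM in Rel-null skin. The part of either in the skin values of the 36 genes was not tested.

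The difference between the genotype effects, skin against lung, gave no called member and 0.0% of all genes by edgeR, with 766 of 16408 genes and 8 members at an unadjusted p under 0.05, and no member by DESeq2 (0.603% of all genes) or limma-voom (1.06%). Of 35 genes, 25 were more positive in skin and 10 less, with a median difference of 0.97 on the log2 scale against 0.14 over all genes. Those scarce in skin could again pass the filter on lung counts. The smallest p was again that of Rac2 (edgeR adjusted p = 1.0). Without the libraries with Xist, Trem2, Cd33, Laptm5 and Lcp1 were called (2.08% of all genes), and without the libraries labelled Rel-null skin 19 and 20 the median turned to -3.01 with no member called (0.177% of all genes).

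Most of 27 other macrophage genes, not on the list, were also lower in skin. In wild type 20 were called lower, where 2.07% of all genes were, and in Rel-null 24 were, where 3.23% of all genes were. None was called higher or between genotypes. The exception in direction was Tlr2, a receptor for bacterial lipoproteins, with 62.1 ± 27 CPM in wild-type lung (SD, n = 5) and 70.8 ± 85.8 CPM in wild-type skin (n = 2) and a log2 fold change of 0.06 ± 0.77 (edgeR adjusted p = 0.994). Ctss, the lysosomal protease cathepsin S, was the most abundant at 902 ± 353 CPM in wild-type lung (SD, n = 5) and 1170 ± 428 CPM in Rel-null lung (n = 4), against 3.97 ± 2.96 CPM (n = 2) and 16.9 ± 8.6 CPM (n = 3) in skin. C1qb, a chain of complement C1q that macrophages secrete, stood at 508 ± 300 and 955 ± 451 CPM in lung and at 2.42 ± 2.94 and 2.77 ± 3.72 CPM in skin. Csf1r, the receptor for the growth factor of macrophages, was also lower in skin in both genotypes (-4.06 ± 0.86 and -5.32 ± 0.77, edgeR adjusted p = 0.015 and 0.000564).

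Genes of other leukocytes were low in lung, though not all were at 0. The T cell list of 10 genes summed to 5.957 to 34.06 CPM there. Cd3e, Cd3d, Cd3g and Cd8a had no count in any lung library, whereas Cd28 reached 26.6 CPM among wild-type libraries and 19 CPM among Rel-null ones. In Rel-null lung Trac, the constant part of the T cell receptor alpha chain, reached 15.9 CPM, Cd4 9.9 CPM and Cd2 5.34 CPM. The 6 B cell genes summed to at most 5.382 CPM, the 6 genes of NK cells to at most 1.259 CPM, the 8 of mast cells to at most 4.914 CPM and the 7 of dendritic cells to at most 13.78 CPM. The 9 neutrophil genes summed to 18.35 to 277.3 CPM in lung, of which the collagenase Mmp8 took 18.4 to 269 CPM.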

How the data were processed

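RNA-seq libraries of 14 outgrowths were made with a directional kit, per the labels' protocols. The authors deposited 1 table of raw counts per gene; FastQC 0.11.2, Trimmomatic 0.33, STAR 2.4.2a and GRCm38 are named per the submitters' processing notes, with no role or order; how reads were assigned to genes, with which annotation and with regard to strand or not, is not given in the sources used here. Of the identifiers, 48435 were found in GENCODE M21 and 360 were not. The members and lists were chosen with earlier results of these data known.

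Counts as deposited were scaled with TMM factors, filtered with filterByExpr (minimum count 10, minimum total 15) and fitted over all 4 groups with edgeR 4.0.16 (quasi-likelihood test, R 4.3.3), with Benjamini-Hochberg adjustment over 16408 genes and a threshold of 0.05. Fold changes are log2. Each SE was taken as the size of the fold change over the square root of its F statistic, so it is approximate. The code was run on simulated counts with a smaller spread between libraries than here, where the common dispersion was 0.948. That run does not show how well the fit performs at the spread of these data. CPM scale each count to a common library total. Total counts ran from 2663437 to 30987933, and only counting error enters the exact Poisson intervals (95%) and the floor of 3 counts. Alternatives were DESeq2 1.42.0, limma-voom 3.58.1 with quality weights, RLE, upper-quartile or no scaling factors, no filter or 1 CPM in 4 libraries, only the groups compared, and libraries left out. The effect of left-out libraries on the count of genes with separate tissues was added after seeing the data. The difference of genotype effects uses all groups, so a fit on only the groups compared could not be run for it.

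Every library's value was to be given for the 2 most abundant genes of each role, the gene with the smallest p in each comparison and every called gene; to keep the text short, less abundant called genes are given by range. None of the 20 pairs of libraries within a group agreed within counting noise. Of the other oxidase genes, 1 result is not reported here.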

Additional observations from a re-analysis of the deposited data

Results flagged for a closer look

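In 9 of 74 groups of 4 or 5 lung values tested, 1 library lay far from the rest of its group by Dixon's criterion, which chance alone meets in about 1 group of 20. The groups are genes read in the same lung libraries and are not independent, so their count cannot be weighed against that rate. Wild-type lung 1 was the low library for Ncf4 (2.23 CPM), Rac2 (18.5 CPM), Ikzf1 (0.823 CPM), Irf8 (21 CPM), Lcp1 (148 CPM) and Dock2 (14.2 CPM). Rel-null lung 7 was the low library for Cd68 (287 CPM) and Lcp1 (242 CPM). Rel-null lung 9 was the high library for Cd52 (156 CPM).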

How the results depend on the processing

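All tissue differences kept their direction under each alternative, and no called value changed sign. Leaving out each library in turn gave 17 to 32 called genes for skin against lung in wild type, 27 to 33 in Rel-null, 0 to 4 for genotype in skin, 0 to 0 in lung, 0 to 3 for the difference of genotype effects, and 28 to 30 genes with separate tissues. For wild-type skin against lung, limma-voom called 4 genes. For genotype in skin, no filter gave 2 called genes, DESeq2 2, leaving out the 4 libraries with the most genes at 0 1 (Cd14), leaving out the libraries with Xist 6, and leaving out Rel-null skin 19 and 20 1. For the difference of genotype effects, leaving out the libraries with Xist gave 4. The cause was not tested, although fits without libraries also have fewer samples. Without Rel-null skin 19 and 20 the median of the skin genotype difference turned to -2.71. No paired analysis was possible because the groups share no replicate numbers. Depth limits low genes most in wild-type skin 22, and the wild-type skin group has 2 libraries.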

Other observations

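Mmp8, a collagenase gene, stood at 189 ± 51.8 CPM in wild-type lung (SD, n = 5) and 93.3 ± 67.7 CPM in Rel-null lung (n = 4). The groups overlapped, at 144 to 269 CPM and 18.4 to 151 CPM, with Rel-null lung 7 the lowest. No tested gene of the neutrophil list, which holds Mmp8 and Camp, was called between genotypes (smallest edgeR adjusted p = 0.801 in lung and 0.751 in skin). Camp, the cathelicidin gene, ran from 7.46 to 32 CPM in Rel-null skin and from 0.375 to 12.6 CPM in wild-type skin. Nox4, an oxidase catalytic subunit of mesenchymal cells, read 0.043 and 55.6 CPM in the 2 wild-type skin libraries and 14.6 to 34.7 CPM in lung.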
